A study of Mus musculus with 10 samples.

Results

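The claudin and tight junction genes described here are Cldn2, Cldn15, Cldn3, Cldn4, Cldn7, Cldn23, Ocln, F11r and Tjp1, 9 of 21911 protein-coding genes in the annotation (GENCODE M21, mouse genome GRCm38). They were taken as a named group and not by their values in these libraries. For each gene, open chromatin was read as the bases lying in called peaks across the gene and 5 kb of flank at both ends. The peaks of the 10 libraries over these genes merged into 67 sites, of 85680 regions in the whole series and of 57720 regions within 5 kb of a protein-coding gene. All 9 genes had at least 1 site, as did 17265 of the protein-coding genes.

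Tight junctions seal the space between neighbouring epithelial cells near the lumen. Claudins are the membrane proteins that set which ions and small molecules pass between the cells, and they differ in role: Cldn2 and Cldn15 form pores for cations and water, while Cldn3 and Cldn4 are usually counted as sealing claudins. Cldn7 lies along much of the lateral membrane of colon cells, and Cldn23 is a claudin of the differentiated cells near the colon surface. Occludin (Ocln) and JAM-A (F11r) are further membrane proteins of the junction, and ZO-1 (Tjp1) is the scaffold that ties them to actin. In the gut, Cldn2 is best known from crypt cells and from leaky, inflamed epithelium.

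The libraries were ATAC-seq libraries, in which a transposase cuts and tags open chromatin, made by the Omni-ATAC protocol from sorted live cells of mouse colon organoids. Organoids are small epithelial cultures, grown here in Matrigel from crypts of the whole colon of C57BL/6 mice. The AHR KO animals carried floxed Ahr alleles (Ahr fl/fl) and Vil-Cre, a Cre driven by the Villin promoter in intestinal epithelium, so Ahr, which encodes the ligand-activated aryl hydrocarbon receptor, was targeted in epithelial cells. WENR, the growth medium, held Wnt3a-conditioned medium, SB202190, A83-01 and nicotinamide beside EGF, Noggin and R-spondin, and d4 ENR organoids were moved from WENR to EGF, Noggin and R-spondin alone for 4 days, which lets them differentiate. There were 2 WT WENR, 3 AHR KO WENR, 3 WT d4 ENR and 2 AHR KO d4 ENR libraries. The labels do not say whether they came from separate cultures or animals, so the p-values measure only the spread between these libraries, which may be technical. Whether fewer cells carried an open site or each cell was less open there cannot be told apart in bulk libraries.

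The media differed in the libraries as a whole, and so did the genotypes in d4 ENR. The libraries held 30354729 to 49126792 fragments, with a mean fragment length of 235 to 255 bp in WENR and of 156 to 221 bp in d4 ENR. Peaks covered 61.8 to 67.2 Mb of the genome in WENR, 26.2 to 41.0 Mb in WT d4 ENR and 46.6 to 50.1 Mb in AHR KO d4 ENR. The share of coverage lying in peaks was 63.0 to 68.6% in WENR and 14.1 to 44.2% in d4 ENR. All of these were separated between the media, and covered length, share in peaks and fragment length were also separated between the genotypes in d4 ENR. In WENR, covered length and fragment length overlapped between the genotypes. The share in peaks was separated there too, at 63.0 and 66.5% in WT and 67.2 to 68.6% in AHR KO. Their part in the results was not tested beyond the scaled values and the lists of equal length. All 8 epithelial marker genes had peaks in all 10 libraries, and 6 of 10 markers of other cell types (among them Ptprc, Cd3e, Pecam1, Cdh5 and Actg2) had none in any. Col1a1 and Pdgfra, known from fibroblasts, had peaks in all 10 libraries, the neuronal gene Elavl4 in 8, and the muscle gene Des in 3, all of them WENR. Their part in the results was not tested. Peaks over Ahr itself covered 2142 and 2544 bp in WT WENR, 5130 to 7017 bp in AHR KO WENR, 1216 to 1595 bp in WT d4 ENR, and 3541 and 3250 bp in AHR KO d4 ENR, and such peaks do not show whether the floxed part was deleted.

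Sequences of a few of the sites named below come from GRCm38.p6, and those of promoters are the bases before the RefSeq start on the same build. Cldn2 had no peak over any of its transcript starts in any library, so its promoter is shown beside its site in the last intron and its downstream site, where most of its covered bases lay. The Cldn3 downstream site was called in all 5 WENR and in no d4 ENR library (5.97% of member sites, 5.22% of all regions near genes). The Tjp1 intron site was called in both AHR KO d4 ENR and in no WT d4 ENR library (2.99% and 2.53%). That site was also called in all 5 WENR libraries, with 523 to 1483 bp in peaks. The Cldn4 promoter lies in the start site that narrowed most in d4 ENR among the starts of the sealing claudins. Each run is written 5′ to 3′ on the strand of its gene, with matches to the searched motifs in capitals.
Cldn2 promoter, chrX:139800558-139800807, plus strand: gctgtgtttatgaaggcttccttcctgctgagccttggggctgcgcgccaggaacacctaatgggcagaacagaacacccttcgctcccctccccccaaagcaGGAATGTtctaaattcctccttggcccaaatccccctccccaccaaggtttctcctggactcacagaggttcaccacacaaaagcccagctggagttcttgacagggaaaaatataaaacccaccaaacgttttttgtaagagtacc
Cldn2 last intron site, chrX:139808226-139808525, plus strand: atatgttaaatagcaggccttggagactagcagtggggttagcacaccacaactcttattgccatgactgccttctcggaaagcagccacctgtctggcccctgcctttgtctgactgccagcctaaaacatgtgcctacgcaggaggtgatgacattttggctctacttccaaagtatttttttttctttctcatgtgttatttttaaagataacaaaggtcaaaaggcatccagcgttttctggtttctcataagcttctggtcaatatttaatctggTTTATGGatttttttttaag
Cldn2 downstream site, chrX:139813416-139813715, plus strand: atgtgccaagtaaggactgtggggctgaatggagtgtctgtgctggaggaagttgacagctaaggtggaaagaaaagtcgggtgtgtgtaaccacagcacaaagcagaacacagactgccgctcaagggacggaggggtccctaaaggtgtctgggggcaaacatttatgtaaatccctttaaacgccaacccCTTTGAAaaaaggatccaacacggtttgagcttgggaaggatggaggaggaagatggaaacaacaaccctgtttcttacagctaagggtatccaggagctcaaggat
Cldn3 downstream site, chr5:134989566-134989865, plus strand: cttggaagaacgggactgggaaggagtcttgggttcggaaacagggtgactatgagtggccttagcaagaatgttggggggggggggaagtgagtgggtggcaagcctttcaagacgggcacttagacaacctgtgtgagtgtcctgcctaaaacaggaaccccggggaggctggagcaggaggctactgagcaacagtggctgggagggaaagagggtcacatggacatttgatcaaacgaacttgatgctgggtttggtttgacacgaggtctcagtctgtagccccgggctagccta
Cldn4 promoter, chr5:134946935-134947184, minus strand: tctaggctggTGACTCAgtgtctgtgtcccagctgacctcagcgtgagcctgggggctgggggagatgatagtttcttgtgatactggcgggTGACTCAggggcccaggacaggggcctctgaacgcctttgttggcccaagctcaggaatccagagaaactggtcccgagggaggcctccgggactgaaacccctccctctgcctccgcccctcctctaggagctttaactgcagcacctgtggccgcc
Tjp1 intron site, chr7:65319479-65319778, minus strand: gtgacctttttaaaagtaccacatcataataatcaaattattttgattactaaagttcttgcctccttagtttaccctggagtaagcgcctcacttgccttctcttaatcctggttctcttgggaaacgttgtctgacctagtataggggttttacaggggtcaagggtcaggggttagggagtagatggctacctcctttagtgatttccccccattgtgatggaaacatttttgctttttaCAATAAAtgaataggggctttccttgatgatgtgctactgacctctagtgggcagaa
The capitals mark a TEAD motif at position 104 of the Cldn2 promoter, a CDX2 motif at position 281 of its last intron site and a TCF/LEF motif at position 194 of its downstream site. They mark 2 AP-1 motifs, at positions 11 and 93, in the Cldn4 promoter and a CDX2 motif at position 244 in the Tjp1 site, counted from 1 at the 5′ end. The Cldn3 site held none of the 7 motifs searched.

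Between the media, Cldn3, Cldn4, Cldn7, Ocln, F11r and Tjp1 lost bases in peaks in d4 ENR in both genotypes, while Cldn2, Cldn15 and Cldn23 did not pass the test. The test was an exact permutation test, 2-sided, of the mean difference between media with labels exchanged within genotype, which allows 100 arrangements and a smallest p of 0.02, and p was adjusted by Benjamini-Hochberg over all 17265 genes with a peak. The genes that passed at an adjusted p of 0.05 were those whose libraries did not overlap between media in either genotype. Of the members 6 of 9 were lower in this way, against 51.3% of all genes, and 0 were higher, against 0.301% of all genes. With every list shortened to the 33433 strongest peaks no gene passed, since the smallest p of 0.02 in the exact permutation test had an adjusted p of 0.0548. Cldn4, Cldn7, Ocln and Tjp1 stayed without overlap at that value, F11r had 0.116 and Cldn3 0.390. By the order of libraries 4 members and 5492 of all genes were lower there, and 0 members and 238 genes higher.

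Among the pore-forming claudins, Cldn2 (ENSMUSG00000047230.6, chrX:139800828-139811386, plus strand) showed the widest spread among WT d4 ENR libraries relative to their mean. Its peaks covered 2163 and 2825 bp in WT WENR, 2559, 2594 and 2760 bp in AHR KO WENR, 0, 488 and 1581 bp in WT d4 ENR, and 3312 and 2741 bp in AHR KO d4 ENR. All WT d4 ENR libraries lay below all WT WENR libraries, and the AHR KO groups overlapped. The group mean in WT was 2494 ± 468 bp in WENR (SD, n = 2) and 690 ± 810 bp in d4 ENR (SD, n = 3), a difference of -72.3%, and in AHR KO it was 2638 ± 107 bp (SD, n = 3) and 3027 ± 404 bp (SD, n = 2), a difference of 14.7%. Over both genotypes the medium difference was -707.8 bp (exact permutation test, p = 0.28, adjusted p = 0.330).

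Cldn15 (ENSMUSG00000001739.14, chr5:136966616-136975858, plus strand) overlapped between the media in each genotype. Peaks covered 3703 and 3677 bp in WT WENR, 2461, 3720 and 2193 bp in AHR KO WENR, 3222, 2778 and 3743 bp in WT d4 ENR, and 3785 and 3683 bp in AHR KO d4 ENR. The medium difference was 250.2 bp (exact permutation test, p = 0.52, adjusted p = 0.572). All 3 Cldn15 sites were called in all 10 libraries. The site 4.3 kb upstream (chr5:136961864-136962845) holds the start of the neighbour Fis1 and 0 starts of Cldn15, so its bases cannot be assigned to Cldn15.

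The sealing claudins Cldn3 and Cldn4 lie close together on chromosome 5, and both fell. Cldn3 (ENSMUSG00000070473.4, chr5:134986214-134987472, plus strand) had 3810 and 3775 bp in peaks in WT WENR, 4114, 4111 and 4463 bp in AHR KO WENR, 2171, 2411 and 3121 bp in WT d4 ENR, and 3030 and 3265 bp in AHR KO d4 ENR. The media did not overlap in either genotype, and Cldn3 fell by 32.3% in WT and fell by 25.6% in AHR KO (difference -1153 bp, exact permutation test, adjusted p = 0.0387). Counted over the gene body alone, without the flanks, the Cldn3 difference was -198 bp and did not pass (exact permutation test, adjusted p = 0.259), and with lists of equal length it was -324 bp.

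Cldn4 (ENSMUSG00000047501.3, chr5:134945119-134946934, minus strand) had the narrowest spread in WENR. Its peaks covered 4266 and 4239 bp in WT WENR, 4250, 4354 and 4325 bp in AHR KO WENR, 1444, 2519 and 2723 bp in WT d4 ENR, and 2893 and 3097 bp in AHR KO d4 ENR. It fell by 47.6% in WT and by 30.5% in AHR KO (difference -1669 bp, exact permutation test, adjusted p = 0.0387), with no overlap. Most of the loss lay in the site over its start (chr5:134944219-134947652), where 3288 to 3406 bp were in peaks in the 5 WENR libraries, 702, 1759 and 1807 bp in WT d4 ENR, and 1923 and 2131 bp in AHR KO d4 ENR.

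Cldn7 (ENSMUSG00000018569.12, chr11:69964779-69967885, plus strand), with Elp5 beside it in the window, changed less. Peaks covered 4407 and 4557 bp in WT WENR, 4575, 4919 and 5589 bp in AHR KO WENR, 3280, 3963 and 4278 bp in WT d4 ENR, and 4568 and 4450 bp in AHR KO d4 ENR. The libraries did not overlap within either genotype, but in AHR KO the nearest values of the media were 4575 and 4568 bp. It fell by 14.3% in WT and by 10.3% in AHR KO (difference -580.2 bp, exact permutation test, adjusted p = 0.0387), and it did not pass with limma, a linear model with pooled spread (adjusted p = 0.0804).

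Cldn23 (ENSMUSG00000055976.6, chr8:35824712-35826559, minus strand) had the steadiest coverage of the 9. Its peaks covered 2263 and 2294 bp in WT WENR, 2207, 2332 and 2319 bp in AHR KO WENR, 2147, 1876 and 2144 bp in WT d4 ENR, and 2446 and 2133 bp in AHR KO d4 ENR. WT was lower in d4 ENR without overlap, AHR KO overlapped, and the medium difference was -109.7 bp (exact permutation test, p = 0.24, adjusted p = 0.287). The site over its start (chr8:35825565-35827220) held 1456 to 1608 bp in peaks in all 10 libraries.

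Both further membrane proteins of the junction, Ocln and F11r, fell in d4 ENR. Ocln (ENSMUSG00000021638.12, chr13:100496507-100552718, minus strand) had 12973 and 13328 bp in peaks in WT WENR, 13218, 13011 and 14307 bp in AHR KO WENR, 8264, 8347 and 10460 bp in WT d4 ENR, and 12443 and 10956 bp in AHR KO d4 ENR. It fell by 31.4% in WT and by 13.4% in AHR KO (difference -2970 bp, exact permutation test, adjusted p = 0.0387). Of its 9 sites 7 were called in all 10 libraries, and 1 site of the window is over the start of the neighbour Gtf2h2.

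F11r (ENSMUSG00000038235.4, chr1:171437535-171464603, plus strand) had 9855 and 8138 bp in peaks in WT WENR, 9472, 9075 and 9745 bp in AHR KO WENR, 1605, 2210 and 3879 bp in WT d4 ENR, and 5977 and 6836 bp in AHR KO d4 ENR. All d4 ENR libraries lay below all WENR libraries, with AHR KO between WT and WENR. F11r fell by 71.5% in WT and by 32.1% in AHR KO (difference -4728 bp, exact permutation test, adjusted p = 0.0387). With lists of equal length the difference was -1965 bp. The site over its start (chr1:171437016-171442475), which the divergent gene Gm26641 shares, held 4916 to 5349 bp in peaks in WENR, 1605, 1979 and 3429 bp in WT d4 ENR, and 5453 and 5413 bp in AHR KO d4 ENR. At that site WT alone was lower in d4 ENR, and over the 8 other F11r sites the mean changed by -94.1% in WT and by -77.1% in AHR KO.

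The scaffold gene Tjp1 (ENSMUSG00000030516.14, chr7:65296165-65527781, minus strand) is the longest member and held 32 of the 67 sites. Peaks covered 23002 and 23771 bp in WT WENR, 26493, 27306 and 28281 bp in AHR KO WENR, 7662, 7739 and 12126 bp in WT d4 ENR, and 14218 and 15816 bp in AHR KO d4 ENR. None of the 4 groups overlapped another. Tjp1 fell by 60.8% in WT and by 45.1% in AHR KO (difference -13277 bp, exact permutation test, adjusted p = 0.0387), and with lists of equal length the difference was -3140 bp.

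**Figure D1:**
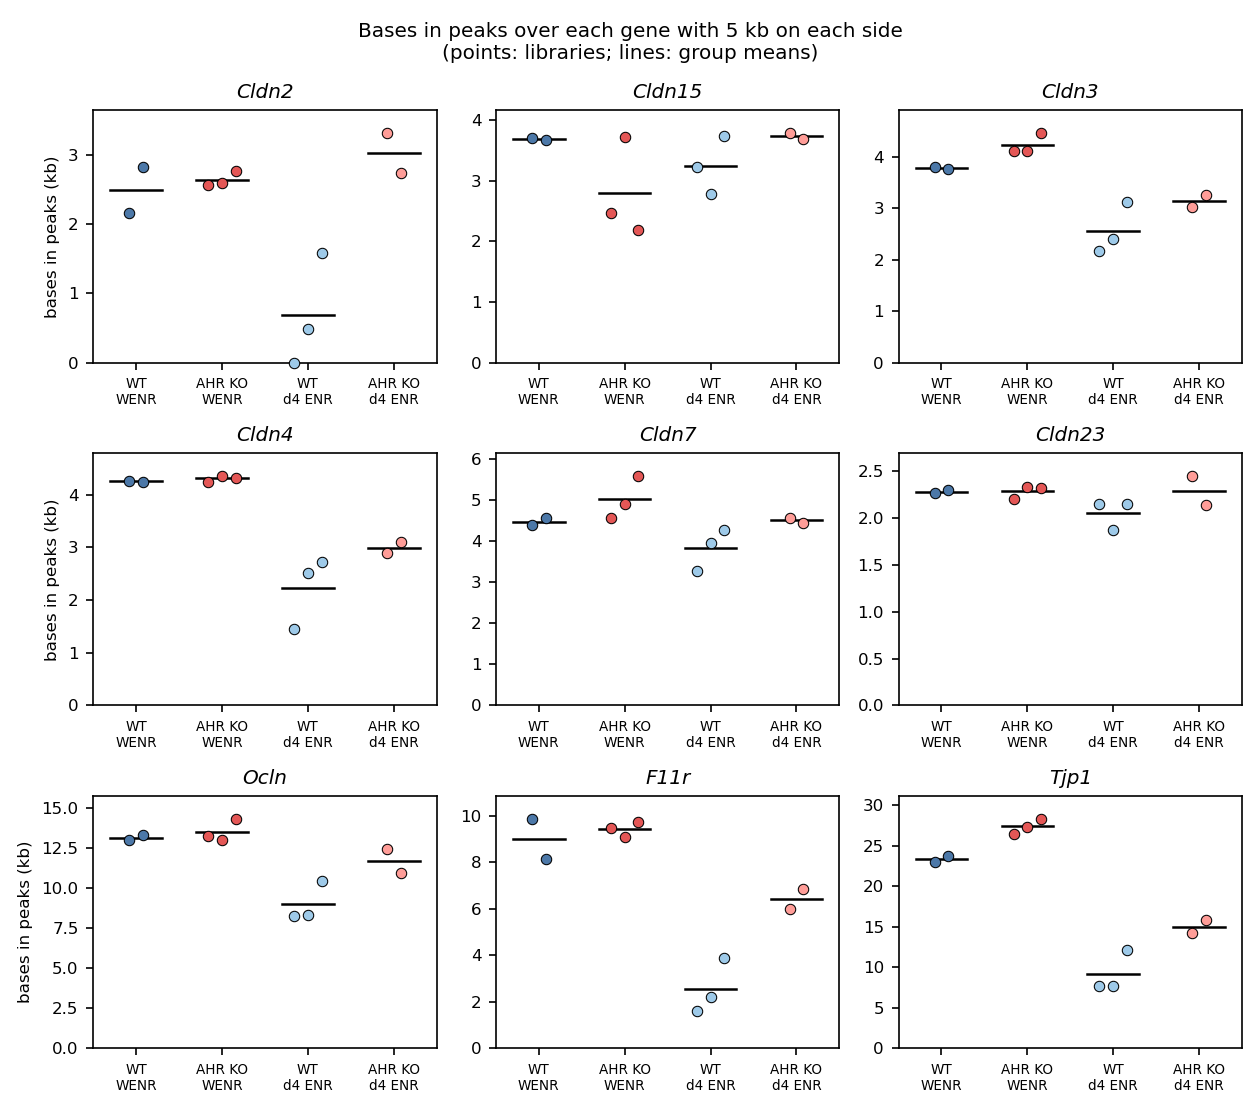
Bases in peaks (kb) over each of the 9 genes and 5 kb of flank at both ends, 1 point per library and a line at each group mean. Cldn3, Cldn4, Ocln, F11r and Tjp1 are lower in every d4 ENR than in every WENR library. Cldn2 is low in the 3 WT d4 ENR libraries (0, 488 and 1581 bp) only.

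Because the total covered length also fell, the same bases were divided by the Mb that all peaks of a library covered. On this scale 2 members stayed lower in d4 ENR without overlap in both genotypes (11.5% of all genes) and 4 were higher (29.6% of all genes), each with an adjusted p of 0.0486 by the exact permutation test. The lower genes were F11r, which changed by -48.1% in WT and -10.2% in AHR KO, and Tjp1, which changed by -26.3% and -27.4%. The higher genes were Cldn15 (69.4% in WT and 76.6% in AHR KO), Cldn7 (63.7% and 19.2%), Cldn23 (75.8% and 33.1%) and Ocln (31.3% and 15.1%), so the direction of Cldn7 and Ocln, and the sign of the mean difference of Cldn3 and Cldn23, turned with the scale. The median change of all genes with a WENR peak was 14.4% in WT and 9.86% in AHR KO on this scale, and -39.6% and -17.1% in bases. On the scaled values Cldn2, Cldn3 and Cldn4 were not separated one way in both genotypes.

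**Figure D2:**
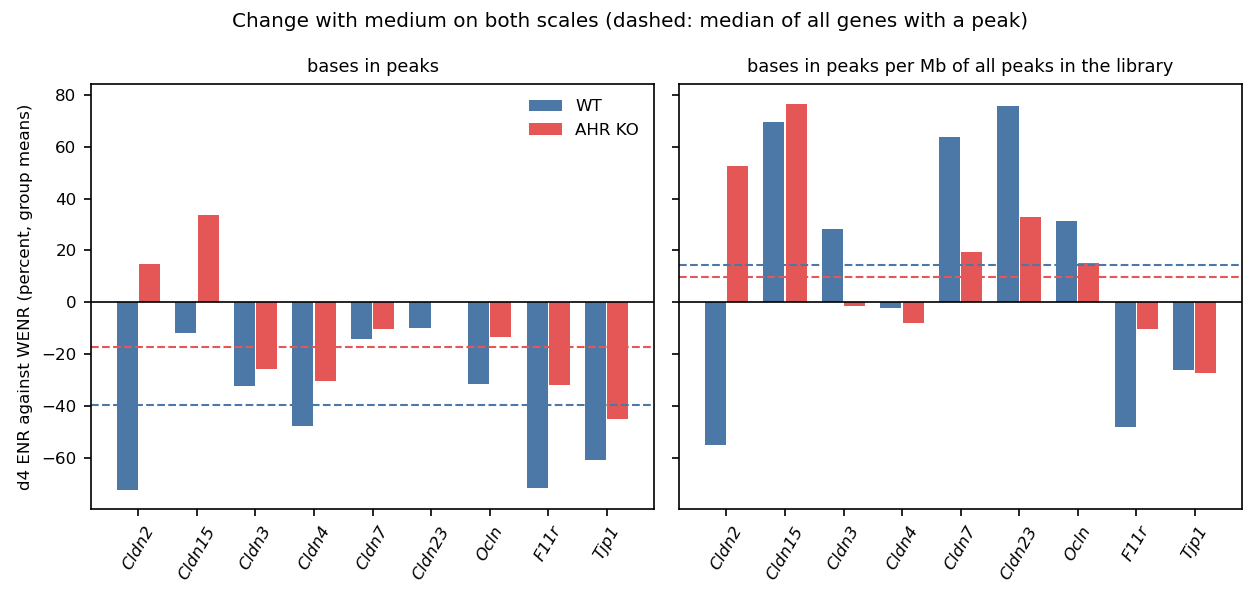
Change of the group mean from WENR to d4 ENR (percent) for each gene in WT and AHR KO, in bases in peaks and in bases per Mb of all peaks, with the median of all genes as a dashed line and no error bars. F11r and Tjp1 are below 0 on both scales in both genotypes, while Cldn7 and Ocln are below 0 in bases and above 0 per Mb.

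The genotypes were compared within each medium, to ask whether loss of Ahr changed accessibility before or after Wnt3a withdrawal. With 2 against 3 libraries the smallest p of the exact permutation test is 0.2, so no gene could pass within a medium, and genes were counted by the order of libraries. In d4 ENR, every AHR KO library lay above every WT library for 6 of 9 members (Cldn2, Cldn4, Cldn7, Ocln, F11r and Tjp1), against 54.4% of all genes, and 0 lay below, against 0.237%. In WENR 3 members lay above (Cldn3, Cldn7 and Tjp1), against 11.8% of all genes, and 0 below, against 11.1%. Without WT WENR replicate 1, WT WENR replicate 2 or AHR KO WENR replicate 1 the WENR count above was 5, and without either WT WENR replicate or AHR KO WENR replicate 2 the count below was 1.

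In d4 ENR the ratio of the AHR KO to the WT mean was 4.39 for Cldn2 and 2.50 for F11r. It was 1.64 for Tjp1, 1.34 for Cldn4, 1.30 for Ocln and 1.17 for Cldn7, and for Cldn3, where the libraries overlapped, 1.23. The median over the members was 1.30 and that over all genes 1.32. With lists of equal length 4 members lay above WT: the difference of Cldn2 went from 2337 to 1352 bp and that of Ocln from 2676 to 1326 bp, both with overlap. By limma, Cldn2 (adjusted p = 0.0168) and F11r (adjusted p = 0.0194) were the members called in d4 ENR among 2128 genes, and no member was called in WENR among 31. After division by the Mb covered, every AHR KO library lay above every WT library for 3 members, Cldn2, F11r and Tjp1 (9.75% of all genes), and below for 3, Cldn15, Cldn3 and Cldn7 (24.1% of all genes), so Cldn7 turned direction between the scales, and the mean differences of Cldn15, Cldn3, Cldn4, Cldn23 and Ocln turned from positive to negative.

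In WENR the AHR KO to WT ratio was 1.17 for Tjp1 and 1.12 for both Cldn3 and Cldn7. With lists of equal length the WENR differences of Cldn3 and Tjp1 turned negative, -171 bp and -167 bp. Over both media, 4 members had an unadjusted p under 0.05 in the exact permutation test (2065 genes in all), among them Tjp1 (4907 bp) and Cldn7 (607.2 bp), each with p = 0.02 and an adjusted p of 0.305. No gene passed after adjustment there, while limma called 260 genes and no member. The medium by genotype interaction passed for no gene after adjustment by the exact permutation test (1928 genes and no member with an unadjusted p under 0.05), and limma called 213 genes and no member. For Cldn2 the interaction was 2193 bp (exact permutation test, p = 0.14, adjusted p = 0.455).

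The 67 sites showed where along the genes the peaks came and went. Between 55 and 60 of them were called in each WENR library, 28 to 40 in WT d4 ENR and 42 to 46 in AHR KO d4 ENR. The whole libraries held 61485 to 65308 peaks in WENR, 33433 to 54768 in WT d4 ENR and 49339 to 58359 in AHR KO d4 ENR. Whether the member sites differ from all regions in this was not tested. Called in all 10 libraries were 27 sites (36.4% of all regions near genes). Of the 9 sites over a coding transcript start of the member itself 8 (88.9%) were among them, and of the 58 other sites 19 (32.8%), including the 2 over the starts of Fis1 and Gtf2h2. The share of start sites of all genes called in all 10 libraries is not given, so whether the members differ in this was not tested. The exception was the site at the start of the long Tjp1 isoforms (chr7:65526963-65527920), called in 5 of 5 WENR, 1 of 3 WT d4 ENR and 1 of 2 AHR KO d4 ENR libraries. The internal Tjp1 start 156.8 kb downstream (chr7:65370253-65371711) was called in all 10, with 1126 to 1392 bp in peaks.

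The 3 Cldn2 sites all lay away from its starts. At the end of its last intron, reaching into the last exon (chrX:139807997-139809017), peaks covered 482 and 759 bp in WT WENR, 826, 737 and 1003 bp in AHR KO WENR, 0, 197 and 0 bp in WT d4 ENR, and 757 and 692 bp in AHR KO d4 ENR. Downstream of the gene (chrX:139812523-139814609) they covered 1681 and 1795 bp in WT WENR, 1733, 1857 and 1757 bp in AHR KO WENR, 0, 291 and 1581 bp in WT d4 ENR, and 1946 and 1767 bp in AHR KO d4 ENR. At both sites every WT d4 ENR library lay below all other libraries. The upstream site (chrX:139797696-139798307) was called in WT WENR replicate 2 and in both AHR KO d4 ENR libraries, with 271, 609 and 282 bp. In the last intron the fold enrichment was 3.26 to 3.85 in WENR, 3.18 in the WT d4 ENR library with a peak, and 2.86 and 3.12 in AHR KO d4 ENR.

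Called in all 5 WENR and in no d4 ENR library were 4 sites (5.22% of all regions near genes). These were the Cldn3 downstream site (chr5:134989376-134990056) and Tjp1 intron sites at chr7:65419756-65420271, chr7:65378960-65379706 and chr7:65317254-65317728. The Cldn3 site was weak where called, with a fold enrichment of 1.30 to 1.70 and 396 to 671 bp. No member site had the opposite pattern, all d4 ENR and no WENR libraries (0.217%).

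Within genotypes, 11 sites were called in both WT WENR and no WT d4 ENR library (12.3% of all regions near genes), 8 of them in Tjp1, 2 in F11r and 1 in Cldn3. In AHR KO, 10 sites were called in all WENR and no d4 ENR library (9.13%), 6 of them in Tjp1, 2 in Ocln and 1 each in F11r and Cldn3. Between genotypes in d4 ENR, 2 sites were called in both AHR KO and no WT library (2.53%), the upstream Cldn2 site and the Tjp1 intron site at chr7:65318888-65320370. None was called in all WT and no AHR KO library (0.0624%). In WENR the Tjp1 site of this pair was called in every library of both genotypes, and the Cldn2 site in 1 WT and 0 AHR KO libraries. In WENR, 1 site, in a Tjp1 intron (chr7:65430372-65431482), was called in all AHR KO and no WT library (1.07%), and none the other way (0.712%).

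**Figure D3:**
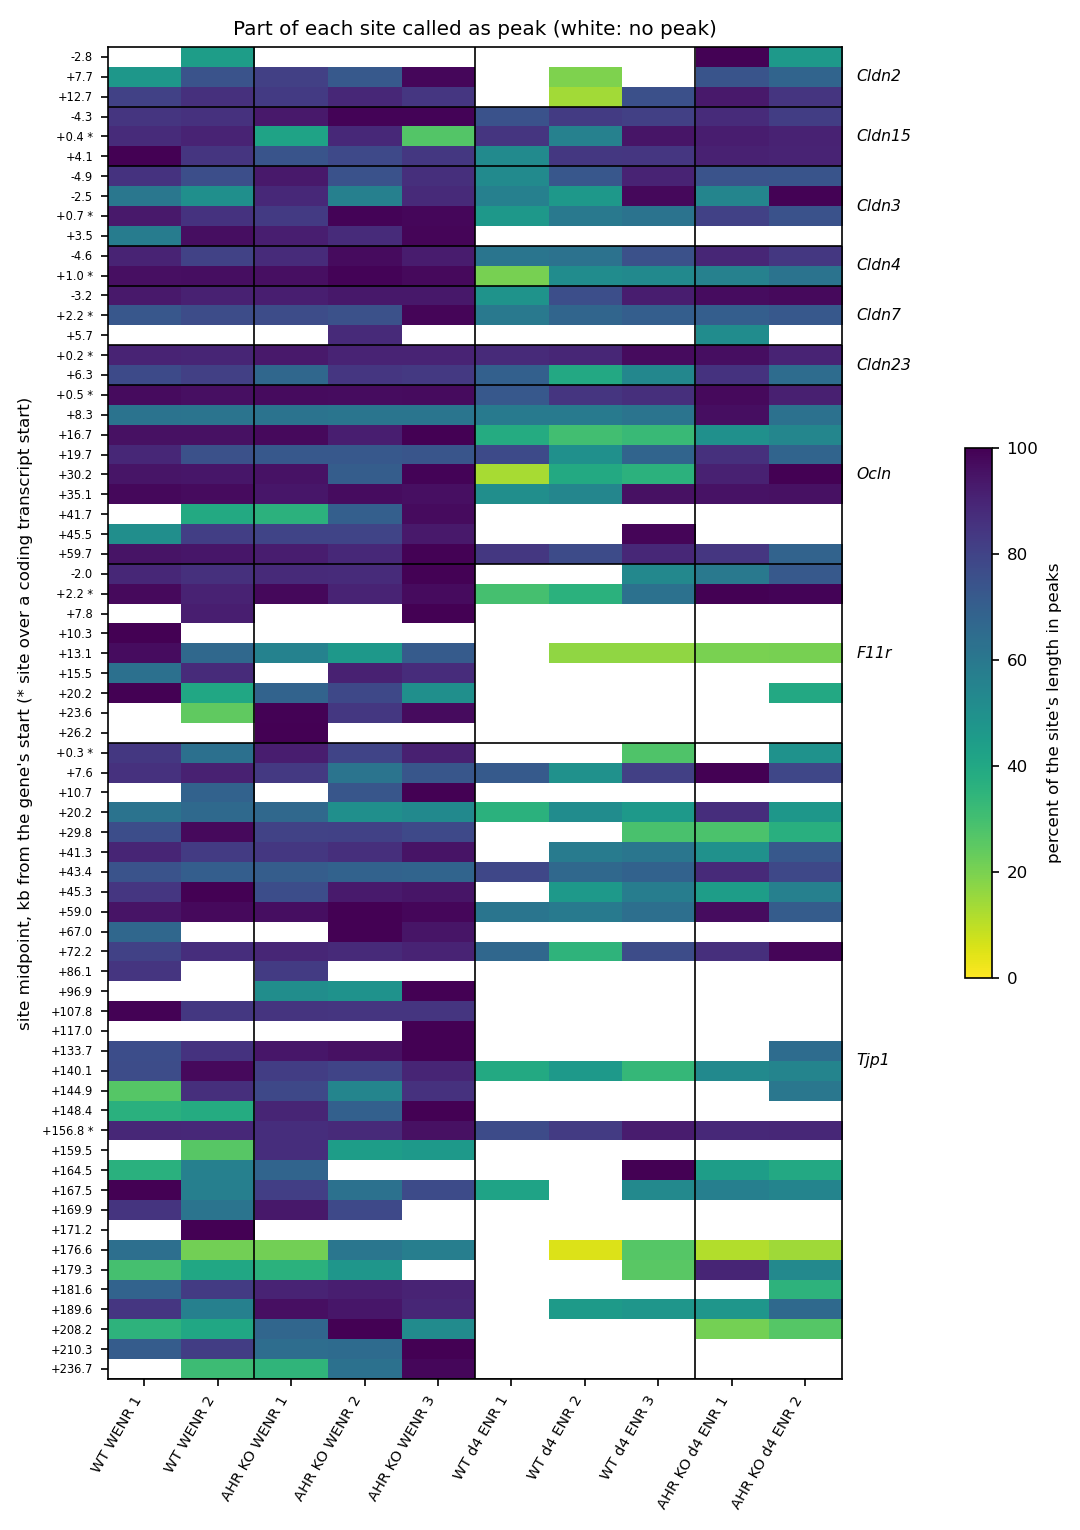
Each row is 1 of the 67 sites, placed by its midpoint in kb from the start of its gene, and each column 1 of the 10 libraries, with the percent of the site's length in peaks as colour, white for no peak and an asterisk for a coding transcript start of the gene itself. Of these 9 start sites 8 are coloured in all 10 columns, against 19 of the 58 others, 2 of which hold a neighbour's start. The start sites of all genes are not shown for comparison.

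At the 27 sites called everywhere, 2 measures of height were read from the peaks: the scaled pileup, which is the mean number of fragments over the peak per 1000000 fragments in the library, and the fold enrichment of the pileup over the background that the caller took from nearby sequence. Scaled pileup was lower in d4 ENR without overlap in both genotypes at 23 member sites (83.4% of all 28205 regions called everywhere, exact permutation test, adjusted p = 0.0239) and higher at 0 (0.167%). Its median fold from WENR to d4 ENR was 0.425 over the member sites and 0.458 over all such regions. In d4 ENR every AHR KO library lay above every WT library at 20 member sites (74.1%) and below at 0 (0.0993%), with a median ratio of 1.64 against 1.62 over all regions.

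Fold enrichment went another way at several of the same sites. It was higher in d4 ENR without overlap in both genotypes at 8 member sites (8.18% of all regions called everywhere) and lower at 2 (15.0%). The median fold was 1.12 over the member sites and 0.972 over all regions. Without WT d4 ENR replicate 1 the count of higher sites was 14. No region of 28205 passed after adjustment in the exact permutation test (smallest adjusted p = 0.0862), 8491 regions and 12 member sites had an unadjusted p under 0.05, and limma called 5267 regions and 8 member sites.

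The 8 higher sites were the starts of Cldn3, Cldn4 and F11r, the Cldn3 site 2.5 kb upstream, the Ocln intron sites at 16.7, 19.7 and 35.1 kb and the Tjp1 intron site at 59.0 kb from the start. The 2 lower sites were the Cldn15 site 4.3 kb upstream and the Tjp1 intron site at 140.1 kb. At the Cldn3 start (chr5:134985630-134988142) fold enrichment was 2.52 and 2.62 in WT WENR, 2.50, 2.49 and 2.37 in AHR KO WENR, 3.11, 3.56 and 3.27 in WT d4 ENR, and 2.81 and 2.91 in AHR KO d4 ENR. There the scaled pileup was 9.93 to 11.1 in WENR, 3.07, 3.63 and 4.33 in WT d4 ENR, and 4.96 and 6.32 in AHR KO d4 ENR. Thus scaled pileup was lower and fold enrichment higher in d4 ENR at the same start.

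At the Cldn4 start the fold enrichment was 2.41 to 2.89 in WENR, 3.13, 3.35 and 3.41 in WT d4 ENR, and 3.07 and 2.98 in AHR KO d4 ENR. At the F11r start it was 1.91 to 2.01 in WENR, 3.68, 5.25 and 4.97 in WT d4 ENR, and 2.27 and 2.41 in AHR KO d4 ENR. In WT d4 ENR the width in peaks at the F11r start was also the narrowest. Fold enrichment is a mean over the called width of a peak, and the part of the width in this difference was not tested. At the Cldn23 start it was the highest of all starts in WENR, 5.97 to 6.37, and overlapped between media at 4.58 to 6.40 in d4 ENR.

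Between genotypes in d4 ENR, fold enrichment lay below WT in every AHR KO library at 8 member sites (3.08% of all regions called everywhere) and above at 0 (12.5%). Without WT d4 ENR replicate 1 the count below was 17, and the count above was 6 without AHR KO d4 ENR replicate 1 and 1 without WT d4 ENR replicate 2. In WENR it lay above at 3 member sites (10.8%) and below at 7 (11.6%), and those counts ranged from 3 to 7 and from 7 to 15 with a library left out, with 15 below without WT WENR replicate 1, 13 below without AHR KO WENR replicate 2, 7 above without WT WENR replicate 2 and 6 above without AHR KO WENR replicate 3. No region passed after adjustment within a medium in the exact permutation test, and none had an unadjusted p under 0.05, since the smallest p is 0.2. By limma 1 region, a member site, was called in d4 ENR and none in WENR.

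**Figure D4:**
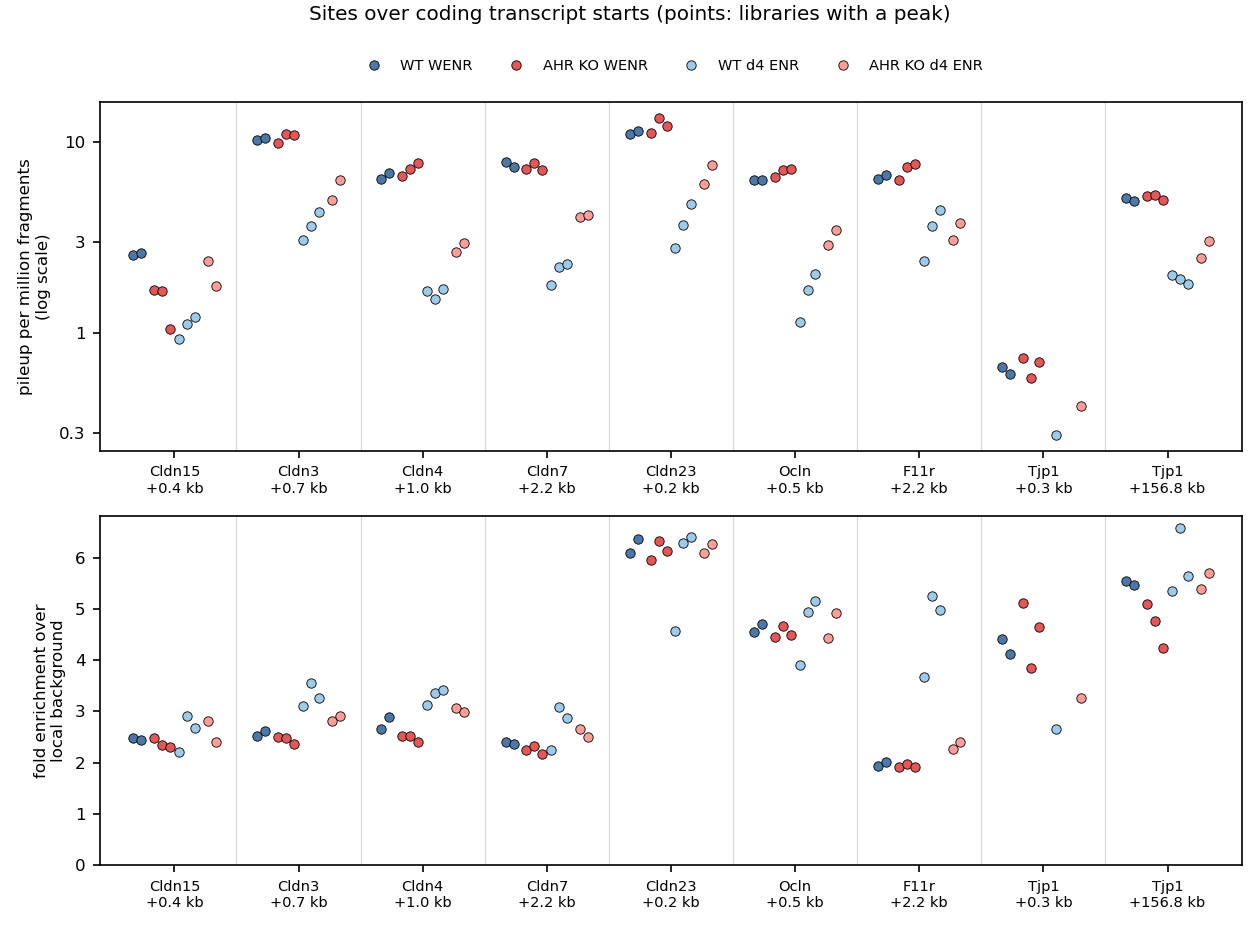
Pileup per 1000000 fragments (log axis) and fold enrichment over local background at the 9 sites over the members' own coding transcript starts, 1 point per library with a peak. At the F11r start the WT d4 ENR libraries are lower than WENR in pileup and higher in fold enrichment (3.68 to 5.25 against 1.91 to 2.01).

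Motifs were counted in the sites as a description of their sequence. In the 300 bases around each site's centre, both strands were searched for TEAD (ACATTCC or GCATTCC), AP-1 (TGACTCA or TGAGTCA), TCF/LEF (CTTTGAA or CTTTGAT), CDX2 (CAATAAA or CCATAAA), HNF4 (CAAAGTCCA or CAAAGTTCA), GRHL (AACCGGTT) and AHR:ARNT (TNGCGTG). CDX2 was in 11 of 67 member sites (14.4% of all regions), TCF/LEF in 9 (11.6%), AP-1 in 6 (14.9%), TEAD in 4 (9.88%), AHR:ARNT in 2 (3.72%), HNF4 in 1 (2.15%) and GRHL in 0 (0.145%). TCF/LEF, the motif of the Wnt pathway's factors, was in 1 of the 27 sites called in all libraries and in 8 of the 40 others, TEAD in 0 and 4, and AHR:ARNT in 2 and 0. CDX2 was in 4 and 7, AP-1 in 3 and 3, HNF4 in 1 and 0, and GRHL in 0 and 0. The same split is not given over all regions, so it was not judged against them. The median GC content was 61.7% in the 9 start sites and 47.2% in the 58 others, against 47.7% in all regions.

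RefSeq promoters, of 250 bases before to 50 after the start, matched 8 of the 9 genes with 10 promoters, and Cldn23 had none. AP-1 motifs were in those of Cldn15, Cldn4 and F11r (5.2% of 32851 promoters), TEAD in those of Cldn2 and Cldn7 (7.0%), and AHR:ARNT in both Ocln promoters and in that of Tjp1 (5.07%). TCF/LEF (8.65%), CDX2 (7.2%), HNF4 (0.861%) and GRHL (0.146%) were in 0 of the members' promoters.

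Most other junction genes with a peak fell too. Of 46 further tight junction genes 45 were in the annotation (Cldn25 was not matched) and 39 had a peak, of which 30 were lower in d4 ENR (76.9%, against 51.3% of all genes) and 0 higher by the adjusted exact permutation test. Their median change was -52.0% in WT and -30.4% in AHR KO, against -32.3% and -13.4% for the members. In d4 ENR, every AHR KO library lay above every WT library for 20 of the 39 (51.3%, against 54.4% of all genes) and below for 0 (against 0.237%). The adherens junction genes were lower for 7 of 10 and the desmosome genes for 8 of 8.

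Among the largest falls of the further genes were those of the scaffold genes Magi1 and Pard3, each without overlap between the media. Magi1 went from 46238 ± 867 bp (SD, n = 2) in WT WENR to 21596 ± 6891 bp (SD, n = 3) in WT d4 ENR, and from 50478 ± 2452 bp (SD, n = 3) to 32813 ± 3146 bp (SD, n = 2) in AHR KO. Pard3, a polarity protein at the junction, went from 30683 ± 1559 bp to 15035 ± 5561 bp in WT and from 27951 ± 962 bp to 25094 ± 1572 bp in AHR KO, with the same n. Chosen after their values were seen, Cldn18 and Cldn13 had 2109 to 2728 bp and 325 to 602 bp in peaks in the WENR libraries and no peak in any d4 ENR library.

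Across the 10 libraries, the protein-coding genes whose bases followed the members' mean standardized pattern most closely by Pearson correlation were Zfp455 (r = 0.994), Sccpdh (r = 0.994) and Tmprss7 (r = 0.992), and 4308 of 17265 genes had an r of at least 0.9. These are descriptions over 10 libraries that fall into 2 media and share their depth and total covered length, and they say nothing of shared function.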

How the data were processed

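ATAC-seq libraries of mouse colon organoids were grouped by the genotype and medium in their labels. The authors processed the reads with nf-core/atacseq, mapped them by BWA to GRCm38 and ran MACS2 2.2.7.1 library by library in broad mode without a control (q value 0.1 broad, 0.05 narrow, local background over 10000 bp). For each peak the deposited lists give the pileup, a mean coverage signal that is not scaled for depth, its fold enrichment over local background, and −log10 p and q. Fragment numbers and lengths were read from the headers of the deposited lists. A missing peak is a region under the threshold and need not be closed. Counts of reads in regions were not analysed here, and the study's count test was not run.

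Peaks were merged into regions where they shared at least 1 bp. Bases in peaks per gene, and log2 fold enrichment and log2 pileup per 1000000 fragments at regions called in all libraries, went into 2-sided exact permutation tests whose p was 2 times the smaller of both tails. A fit with limma 3.58.1 in R 4.3.3 was an alternative. All p-values were adjusted by Benjamini-Hochberg over all features. Python 3.11.15, numpy 2.4.6, pandas 2.3.3, scipy 1.17.1 and matplotlib 3.10.9 were used, and the procedures were tested on simulated data. The rule for names took all 9 members with their start sites, and the sites called in all libraries of a group and none of the group compared. It also took the 3 further tight junction genes with the largest called fall and rise (none rose), and the 3 genes most like the members' mean pattern. An item that these rules cover is not reported here. The members and lists were chosen with earlier results of these data known.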

Additional observations from a re-analysis of the deposited data

How the results depend on the processing

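For single members, 129 values kept direction and call under other settings, 32 lost the call, 10 gained it and 18 reversed, all of the last given here. With lists of equal length (36 member sites, 21 in all libraries), counted by the order of libraries, 238 genes were higher and 5492 lower in d4 ENR. AHR KO lay below WT for 89 in d4 ENR and above for 1346 in WENR, and 0 members lay above and 1 below in WENR. In fold enrichment 1 member site was lower. Of the sites, 1 was called in all WENR and no d4 ENR libraries. Another count, of sites called in both AHR KO d4 ENR and no WT d4 ENR library whatever their WENR calls, was 1. There the medium difference was 676 bp for Cldn2 and 231 bp for Cldn23, and the WENR genotype difference -171 bp for Cldn3 and -167 bp for Tjp1. With a −log10 q of at least 5 (52 member sites, 19 in all libraries), 15 genes were higher in d4 ENR and 15 lay below WT in AHR KO d4 ENR. There 1 site was called in both AHR KO and no WT library of d4 ENR, and the medium difference of Cldn15 was -384 bp. With the gene body alone, 20 kb of flank or the signal in peaks, 1 member lay below WT in AHR KO WENR. With 20 kb the medium difference was -258 bp for Cldn15 and 65.3 bp for Cldn23. With the signal in peaks 15104 genes were lower in d4 ENR, 25 lay below WT in AHR KO d4 ENR, 3822 above and 1101 below in WENR, and Cldn15 had a medium difference of -4348 in bases times fragments.

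Per Mb covered, 4 members and 5115 genes were higher and 2 members and 1986 genes lower in d4 ENR. In AHR KO d4 ENR 3 members and 1684 genes lay above WT, and 3 members and 4167 genes below, as did 3089 genes in WENR. The medium differences that turned, in bp per Mb, were 8.14 for Cldn3, 30.4 for Cldn7, 19.8 for Cldn23 and 49.0 for Ocln, and those between genotypes in d4 ENR were -22.9 for Cldn15, -12.9 for Cldn3, -4.73 for Cldn4, -24.2 for Cldn7, -16.7 for Cldn23 and -34.0 for Ocln. Here the division by covered length makes the change. By scaled pileup, 0 member sites were higher and 23 lower in d4 ENR, 20 lay above and 0 below WT in AHR KO d4 ENR, and 8 above and 1 below in WENR. With at least 50% of a site in peaks, 4 sites were called in both AHR KO and no WT library of d4 ENR, whatever their WENR calls. On that rule 13 were called in all libraries.

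By limma, 198 genes were higher in d4 ENR, and 10789 genes and 5 members were lower. In AHR KO d4 ENR 2126 genes and 2 members were higher and 2 genes lower. In AHR KO WENR 17 genes were higher, 14 lower and 0 members called. It called 260 genes over both media and 213 for the interaction. The labels do not say whether libraries with the same replicate number are paired, and the main tests treated them as unpaired. Of 13 same-numbered pairs, 5 had correlated deviations over 0.1 (r from -0.15 to 0.38). With 2 or 3 libraries per group the deviations within a group are tied to each other, so these correlations cannot decide it. With the replicate block in limma, 211 genes were higher and 10975 lower in d4 ENR. The 7 members called by medium, with Cldn2 added at an adjusted p of 0.0477, were all among the lower genes. In AHR KO d4 ENR 4940 genes were higher and 7 lower. There 6 members were called (Cldn3, Cldn7, Ocln and Tjp1 added to Cldn2 and F11r). In AHR KO WENR 1 gene was higher, 0 were lower and 0 members were called. The blocked fit called 769 genes over both media and 345 for the interaction. For fold enrichment with the block, 1 member site was lower by medium, 1 lower in AHR KO d4 ENR, and 0 higher and 0 lower in AHR KO WENR.

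With each library left out in turn, AHR KO WENR lay above WT for 2036 to 4644 genes and 3 to 5 members and below for 1918 to 4174 genes and 0 to 1 members, the highest without WT WENR replicate 2 (4644) and WT WENR replicate 1 (4174). The counts of genes above were 3814 without WT WENR replicate 1, 3695 without AHR KO WENR replicate 1 and 3576 without AHR KO WENR replicate 2, and those below 3809 without WT WENR replicate 2 and 3843 without AHR KO WENR replicate 3. AHR KO d4 ENR lay below for 41 to 232 genes, with 216, 158 and 75 without WT d4 ENR replicates 1, 2 and 3, and 108 and 232 without AHR KO d4 ENR replicates 1 and 2. Higher in d4 ENR were 52 to 172 genes, 172 without WT d4 ENR replicate 1. For fold enrichment the ranges were 3 to 7 member sites above and 7 to 15 below in AHR KO WENR, 0 to 6 above and 8 to 17 below in AHR KO d4 ENR, and 8 to 14 higher by medium. Fewer libraries overlap less by construction. By the order of libraries alone, members lower in d4 ENR numbered 6 to 7, beside 8928 to 10376 of all genes. Members above WT in AHR KO d4 ENR numbered 6 to 8, beside 9387 to 12985 of all genes. An adjusted p was not asked for with a library left out, so these counts do not show whether the medium calls would hold.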
